A study of Homo sapiens with 16 samples.

Results

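TSS-proximal AIB1 clusters are the regions listed by the authors as occupied by AIB1 that lay 5 kb or less from the transcription start site (TSS) of a protein-coding transcript of a protein-coding gene. They were taken from the union of the 4 deposited cluster lists, with regions of identical chromosome, start and end counted once, and distances were measured to GENCODE release 44 on GRCh37 (hg19). Of 897 distinct clusters, 214 were TSS-proximal and 683 were distal. No cluster lay on chromosomes 20, 21 or 22, and the cluster and gene counts here therefore cover the 20 chromosomes that held clusters. The windows near TSSs used as sequence background also take in chromosomes 20, 21 and 22.

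AIB1, the product of NCOA3, was immunoprecipitated from MCF10A, a human breast epithelial line that does not form tumours, from MCFDCIS, a line derived from it and used as a model of ductal carcinoma in situ, and from the counterparts named MCF10A-D4 and MCFDCIS-D4. The 16 samples made up 4 groups of 3 ChIP samples with 1 input sample each. All groups were mammary epithelial cells kept in medium with horse serum, EGF, hydrocortisone, cholera toxin and insulin, so every group, parental or D4, was exposed to a glucocorticoid. The labels do not say how the D4 cells were made or how many clones they represent. The series title refers to the AIB1D4 cistrome.

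Each group was represented by a single list without replicate values. The line in a list's file name is not the line of the samples that refer to it: MCFDCIS samples point to files named for MCF10A, and MCF10A samples to files named for MCFDCIS. A list is therefore identified by the name it carries (MCF10A-named or MCFDCIS-named, parental or D4), and its true line is uncertain. No replicate error could be given for any value. The intervals given are exact (Clopper-Pearson) 95% intervals of shares and Newcombe 95% intervals of differences between shares. They cover the number of clusters only, sequencing depth is unknown, and an absence from a list cannot be told apart from a signal under the authors' limit.

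AIB1 is a p160 coactivator. It does not bind DNA on its own account but is recruited by nuclear receptors, including the glucocorticoid receptor, and by other transcription factors such as AP-1, and it brings in histone acetyltransferases. AIB1Δ4 is an isoform that lacks the N-terminal part of the protein. Coactivator binding is commonly found at enhancers, which lie in introns and between genes. A region close to a TSS can be a core promoter, rich in CpG dinucleotides and in sites for SP/KLF and ETS factors, or an enhancer-like element that happens to lie near a start.

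The sequences printed first are those that match the glucocorticoid response element (GRE), GNACANNNTGTNC, at the TSS-proximal clusters that carried one. The match is a palindrome of the inverted repeat bound by a receptor dimer. Each line holds 60 bases of the plus strand of GRCh37, read 5′ to 3′ and centred on the match, with the GRE match in capitals and, in MAP2K1, also an AP-1 match (TGANTCA) in capitals.
PER1, chr17:8057756-8057815: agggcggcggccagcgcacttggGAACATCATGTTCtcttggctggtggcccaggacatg
TPRG1, chr3:188665882-188665941: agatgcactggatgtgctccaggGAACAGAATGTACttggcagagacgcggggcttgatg
FKBP5, chr6:35695868-35695927: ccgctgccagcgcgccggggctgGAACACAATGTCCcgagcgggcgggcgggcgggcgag
FKBP5, chr6:35699773-35699832: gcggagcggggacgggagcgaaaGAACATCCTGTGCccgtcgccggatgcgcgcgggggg
SCNN1A, chr12:6485462-6485521: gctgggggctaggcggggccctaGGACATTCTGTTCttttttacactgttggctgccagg
MT2A, chr16:56641231-56641290: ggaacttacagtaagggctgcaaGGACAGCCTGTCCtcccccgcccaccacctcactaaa
KRT6A, chr12:52888384-52888443: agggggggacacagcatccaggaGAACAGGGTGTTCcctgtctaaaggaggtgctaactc
CCND3, chr6:42013573-42013632: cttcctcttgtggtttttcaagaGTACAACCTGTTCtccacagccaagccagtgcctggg
SLC41A3, chr3:125776269-125776328: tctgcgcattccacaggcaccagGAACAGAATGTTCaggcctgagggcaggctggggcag
KLF13, chr15:31658092-31658151: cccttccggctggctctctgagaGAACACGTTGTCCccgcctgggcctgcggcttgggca
MAP2K1, chr15:66683214-66683273: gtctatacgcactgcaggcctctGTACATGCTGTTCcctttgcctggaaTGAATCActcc

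The second set of sequences shows TSS-proximal clusters that were in a D4 list. Each line holds the central 200 bases of the cluster, plus strand of GRCh37, 5′ to 3′, with matches to AP-1 (TGANTCA) and to the SP/KLF GC box (GGGCGG) in capitals on either strand. Matches to GRE, ETS (CCGGAAG) and E-box (CACGTG) were also searched in these bases and were absent from all 6. VGLL4 and CYP1B1 were in 3 lists, PSMA3 and SMG9 in 2, and IGSF23 and NIPAL4 in the MCF10A-named D4 list alone.
VGLL4, chr3:11609656-11609855: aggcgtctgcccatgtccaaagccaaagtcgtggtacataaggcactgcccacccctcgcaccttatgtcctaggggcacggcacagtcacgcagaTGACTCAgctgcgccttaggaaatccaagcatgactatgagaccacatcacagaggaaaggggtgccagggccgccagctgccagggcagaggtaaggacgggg
CYP1B1, chr2:38304056-38304255: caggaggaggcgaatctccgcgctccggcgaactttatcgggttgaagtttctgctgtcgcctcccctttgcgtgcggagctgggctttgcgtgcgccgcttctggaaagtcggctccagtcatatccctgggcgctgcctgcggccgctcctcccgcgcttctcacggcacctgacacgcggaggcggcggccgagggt
PSMA3, chr14:58711706-58711905: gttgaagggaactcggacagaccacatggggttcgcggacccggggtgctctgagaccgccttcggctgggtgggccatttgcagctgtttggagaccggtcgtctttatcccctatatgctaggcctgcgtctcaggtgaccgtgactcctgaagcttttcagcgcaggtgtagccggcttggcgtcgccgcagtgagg
SMG9, chr19:44257356-44257555: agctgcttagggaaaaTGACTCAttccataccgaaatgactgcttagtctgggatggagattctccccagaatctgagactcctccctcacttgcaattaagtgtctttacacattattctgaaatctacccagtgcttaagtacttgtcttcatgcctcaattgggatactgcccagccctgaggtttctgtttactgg
IGSF23, chr19:45129356-45129555: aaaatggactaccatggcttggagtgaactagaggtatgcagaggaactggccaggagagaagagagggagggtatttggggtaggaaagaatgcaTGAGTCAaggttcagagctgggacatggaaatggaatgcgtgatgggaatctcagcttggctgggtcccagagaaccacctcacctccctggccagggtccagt
NIPAL4, chr5:156891581-156891780: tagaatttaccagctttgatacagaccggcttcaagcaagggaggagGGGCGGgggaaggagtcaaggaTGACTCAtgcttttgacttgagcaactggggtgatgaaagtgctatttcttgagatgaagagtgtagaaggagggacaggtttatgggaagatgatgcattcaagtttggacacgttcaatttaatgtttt

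The last lines hold the 120 bases around the centres of 2 clusters that were in both parental lists and in no D4 list. They were picked as holders of an AP-1 match, again in capitals on the plus strand of GRCh37. Only AP-1 and GRE were searched here, and the VGLL4, SMG9, IGSF23 and NIPAL4 lines above hold AP-1 too.
CCL20, chr2:228683296-228683415: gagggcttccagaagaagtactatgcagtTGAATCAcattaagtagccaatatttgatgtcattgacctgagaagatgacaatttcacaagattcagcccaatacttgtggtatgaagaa
AXL, chr19:41732046-41732165: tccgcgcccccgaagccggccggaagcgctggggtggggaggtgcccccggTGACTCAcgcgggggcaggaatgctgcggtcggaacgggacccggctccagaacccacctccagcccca

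A larger share of the MCFDCIS-named D4 list was close to a TSS than of the other 3 lists. In that list 42 of 99 clusters (42.4%, 95% interval 32.5 to 52.8) were TSS-proximal. The share was 152 of 651 (23.3%, 20.1 to 26.8) in the MCFDCIS-named parental list, 101 of 490 (20.6%, 17.1 to 24.5) in the MCF10A-named parental list and 32 of 138 (23.2%, 16.4 to 31.1) in the MCF10A-named D4 list. The first interval did not overlap the other 3, which overlapped one another. With distance taken to the canonical TSS of each gene only, the 4 shares were 32.3%, 14.7%, 12.2% and 13% in the same order, so the order of the D4 list above its parental list remained while the levels fell.

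As background, of all 897 clusters 54.6% were MCF10A-named parental, 15.4% MCF10A-named D4, 72.6% MCFDCIS-named parental and 11.0% MCFDCIS-named D4. The 214 TSS-proximal clusters were spread over 13 combinations of lists. A single list held 117 of them, 84 were in 2 lists, 10 in 3 and 3 in all 4. The MCFDCIS-named parental list alone accounted for 69, both parental lists together and no D4 list for 47, and the MCF10A-named parental list alone for 28. A D4 list held 70 of the 214 (32.7%), against 25.4% of all clusters, and 20 of these were in no parental list.

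**Figure D1:**
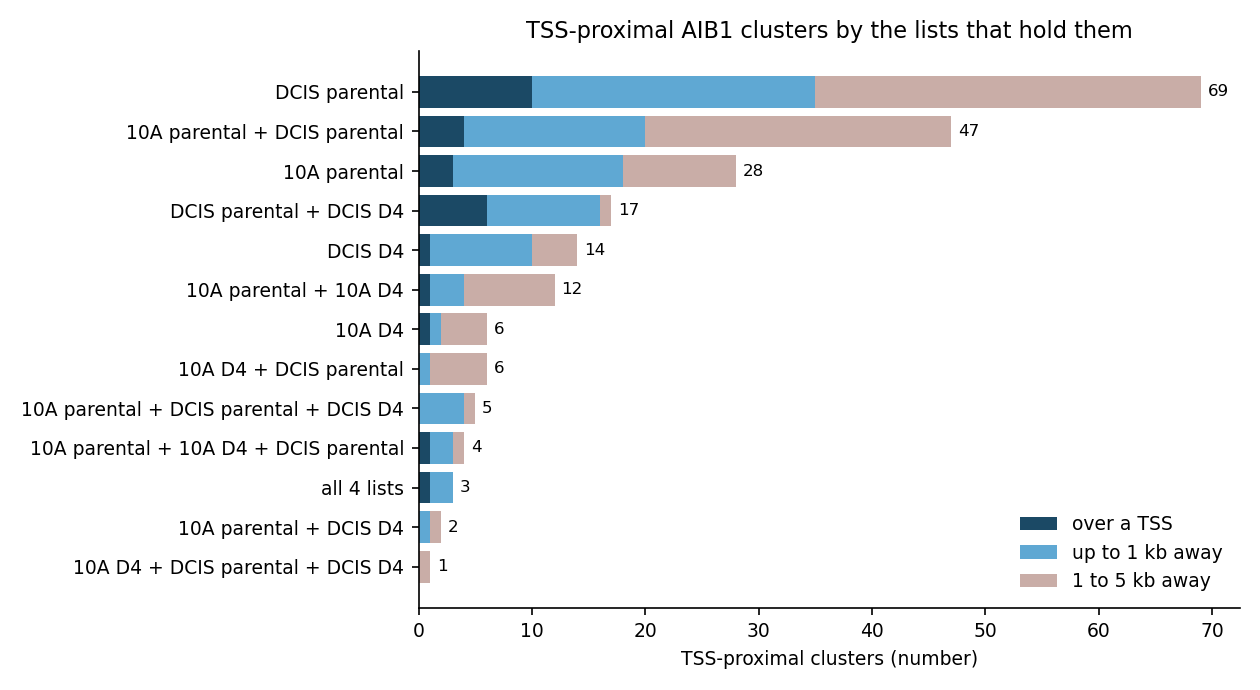
Number of TSS-proximal clusters (horizontal axis) in each combination of the 4 lists (vertical axis, where 10A stands for MCF10A-named and DCIS for MCFDCIS-named), with bar segments for clusters over a TSS, up to 1 kb away and 1 to 5 kb away. The longest bars are those of parental lists (69, 47 and 28 clusters), and 16 of the 17 clusters shared by the MCFDCIS-named parental and D4 lists alone fall in the first 2 segments.

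Only 28 of the 214 clusters lay over a TSS. A further 89 were up to 1 kb away and 97 were 1 to 5 kb away. Downstream positions (109 clusters) were more frequent than upstream ones (77), and at the cluster midpoint the annotation of protein-coding transcripts gave an intron for 136, no gene for 43, a 5′ UTR for 15, a coding exon for 13 and a 3′ UTR for 7. For 74 clusters (34.6%) the TSS that made them proximal was an alternative one, and the canonical TSS of the gene was more than 5 kb away. FKBP5 is an example: its 2 clusters lay 0.4 kb downstream and 3.39 kb upstream of an alternative start and 39.2 and 43.1 kb from the canonical one.

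The 2 D4 lists differed in where their clusters lay within the 5 kb. In the MCFDCIS-named D4 list 34 of 42 (81.0%, 65.9 to 91.4) were within 1 kb of a TSS or over it, against 82 of 152 (53.9%, 45.7 to 62.1) in its parental list. In the MCF10A-named D4 list 13 of 32 (40.6%, 23.7 to 59.4) were that close, against 53 of 101 (52.5%, 42.3 to 62.5) in its parental list. The interval of the first D4 list lay above those of the other 3 lists. The clusters were narrow, with a median width of 60 bp, and 78 of the 214 had the smallest width, 10 bp.

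**Figure D2:**
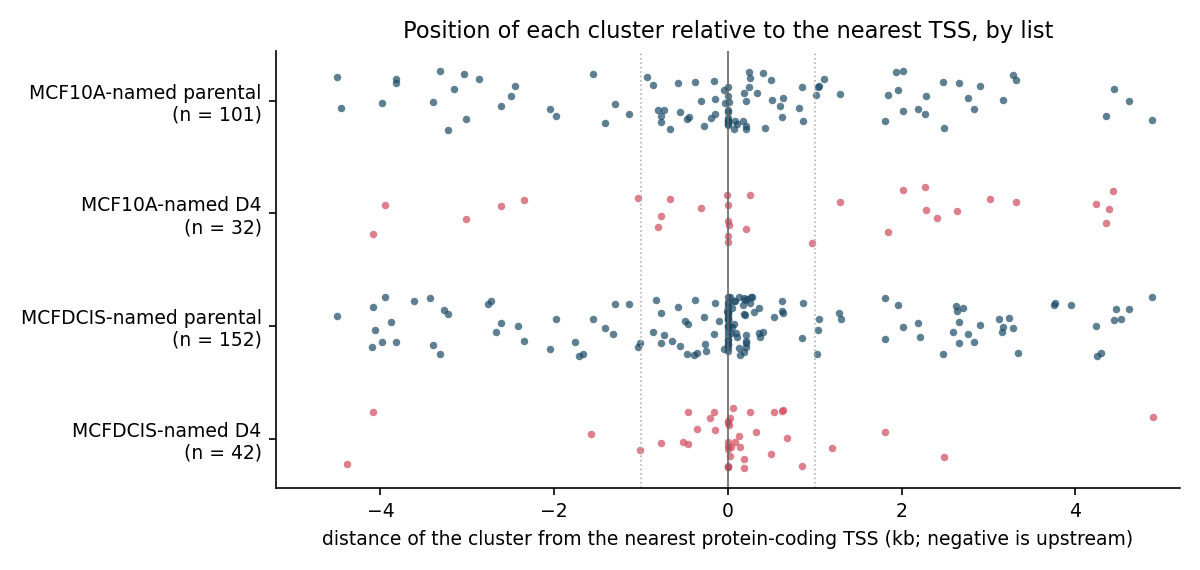
Position of every TSS-proximal cluster (1 point each, spread vertically only to separate points) relative to the nearest protein-coding TSS in kb, negative upstream, for the 4 lists, with parental lists in blue and D4 lists in red. Dotted lines mark 1 kb on either side, and 34 of the 42 MCFDCIS-named D4 clusters fall between them, against 13 of the 32 MCF10A-named D4 clusters.

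Parental clusters close to a TSS were found again in the D4 list more often than distal ones under the MCFDCIS name. Of the 82 MCFDCIS-named parental clusters within 1 kb of a TSS, 23 (28%, 18.7 to 39.1) were also in the MCFDCIS-named D4 list. Of the 70 at 1 to 5 kb only 3 were (4.29%, 0.893 to 12), and of the 499 distal ones 39 (7.82%, 5.62 to 10.5). The difference between the first 2 groups was 23.8 percentage points (12.3 to 34.7), and that between clusters within 1 kb and distal ones was 20.2 points (11.2 to 31.0). For parental clusters with a score above the list's median the first difference was 36.7 points. For those at or under the median it stayed between 12.3 and 34.7 points. Outside the 3 dense regions described further on it was 21.5 points (8.50 to 33.7). These settings were chosen after seeing the data. With every list limited to scores above its median, the proximal minus distal difference was smaller and was not resolved, as given further on.

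Under the MCF10A name 10 of 53 parental clusters within 1 kb (18.9%, 9.44 to 32), 9 of 48 at 1 to 5 kb (18.8%, 8.95 to 32.6) and 48 of 389 distal ones (12.3%, 9.24 to 16) were in the D4 list. The difference between the first 2 was 0.118 points with an interval of -15.5 to 15.3, and that between clusters within 1 kb and distal ones was 6.53 points (-2.52 to 19.4). Outside the dense regions the 3 shares were 8 of 40 (20.0%), 5 of 39 (12.8%) and 22 of 267 (8.24%). Clusters within 1 kb then stood 11.8 points above distal ones (1.48 to 26.8), an interval that leaves out 0, and 7.18 points above those at 1 to 5 kb (-9.64 to 23.6). The lists were also paired across names. Names and descriptions cross for parental and D4 lists alike, so lists of the same name would still belong together if the lines were swapped. Pairing across names is therefore a description and no check on the swap. MCF10A-named parental clusters were in the MCFDCIS-named D4 list for 8 of 53 within 1 kb (15.1%, 6.75 to 27.6) and 2 of 48 at 1 to 5 kb (4.17%, 0.509 to 14.3). MCFDCIS-named parental clusters were in the MCF10A-named D4 list for 7 of 82 (8.54%, 3.50 to 16.8) and 7 of 70 (10.0%, 4.12 to 19.5). No test compared the line names with each other.

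**Figure D3:**
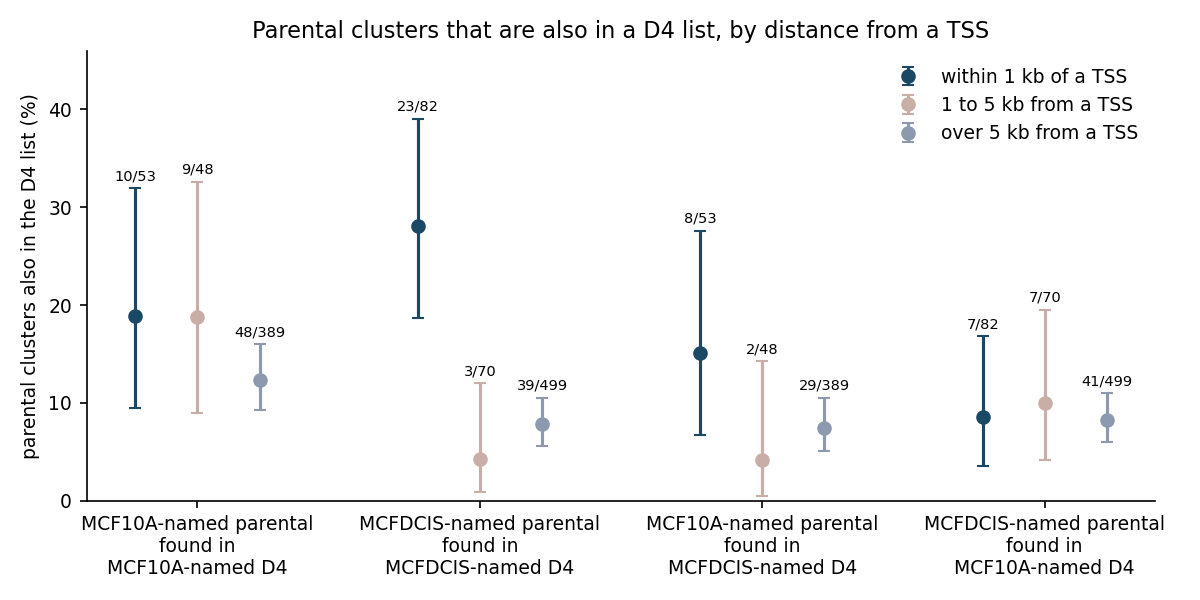
Share of parental clusters that were also in a D4 list (vertical axis, %), for clusters within 1 kb of a TSS, 1 to 5 kb from one and over 5 kb from one, in the 4 pairings of a parental with a D4 list. Points are shares, bars are exact 95% intervals and the counts are printed above them; the MCFDCIS-named pair stands at 23/82 within 1 kb against 3/70 at 1 to 5 kb.

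The shares were also read from the D4 lists. Of the 42 proximal clusters of the MCFDCIS-named D4 list 26 (61.9%) were in its parental list, and of the 32 of the MCF10A-named D4 list 19 (59.4%) were. Among distal clusters the shares were 39 of 57 (68.4%) and 48 of 106 (45.3%), and proximal minus distal was -6.52 points (-24.9 to 11.9) and 14.1 points (-5.47 to 31.8), so neither difference was resolved. Both parental lists shared 59 proximal clusters, which made up 58.4% of the 101 in the MCF10A-named list and 38.8% of the 152 in the MCFDCIS-named list. Distal clusters had 63.8% of 389 and 49.7% of 499. In the MCFDCIS-named list proximal clusters were thus shared less often than distal ones, by -10.9 points (-19.5 to -1.83), and in the MCF10A-named list the difference was -5.34 points (-16.1 to 5.02). Both D4 lists shared 4, among them those at ABLIM3, SREBF1 and ACTN1, out of 9 shared clusters at any distance.

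A total of 3 TSS-proximal clusters were found in all 4 lists. ABLIM3, an actin-binding LIM protein, had one of them, in a 5′ UTR 0.017 kb downstream of a TSS, and the authors' deposited table scored it at 7.83 and 8.57 in the MCF10A-named parental and D4 lists and at 32.6 and 9.46 in the MCFDCIS-named ones. By score it ranked 435 of 490 and 64 of 138 in the MCF10A-named parental and D4 lists and 188 of 651 and 49 of 99 in the MCFDCIS-named ones, so it stood low in the first of these and near the middle of both D4 lists.

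SREBF1, the sterol regulatory transcription factor, had another cluster found in all 4 lists, a region over an alternative TSS. It belongs to a dense stretch of clusters on chromosome 17. ACTN1, an alpha-actinin that anchors actin, had a cluster 4.08 kb upstream of a TSS in both D4 lists and the MCFDCIS-named parental list. ACTN4, its paralog, had one 3.32 kb downstream in both MCF10A-named lists, and PDLIM7, an actin-associated scaffold, had one 0.122 kb downstream in the MCFDCIS-named parental list. Of the 29 genes of the actin and adhesion list on chromosomes with clusters, 5 had a TSS-proximal cluster in any list, 4 of them in the MCF10A-named D4 list and 3 in the MCFDCIS-named D4 list.

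The gene background for such counts is low. The gene lists were chosen with earlier results of these data known, so the share of a list set beside this background is a description only. Of 18547 protein-coding genes on these chromosomes, 1.14% (211 genes) had a TSS-proximal cluster in any list. By list the share was 0.577% (107 genes) for MCF10A-named parental, 0.173% (32) for MCF10A-named D4, 0.868% (161) for MCFDCIS-named parental and 0.264% (49) for MCFDCIS-named D4. Of the 211 genes, 185 had 1 cluster and 20 had 2. PSAP, TOM1L2 and TOP3A had 3, FAM83G and SREBF1 had 5, and PDE4DIP had 6. Members of 1 dense stretch or of 1 gene are not independent, and 34 clusters had more than 1 gene within 5 kb.

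Some glucocorticoid-induced genes had a cluster near a start. Of 23 such genes on the list used here 5 had a TSS-proximal cluster in any list (21.7%), 5 in the MCF10A-named parental list, 4 in the MCFDCIS-named parental list, 1 in the MCFDCIS-named D4 list and 0 in the MCF10A-named D4 list. They were PER1, a repressor of the circadian clock, FKBP5, a co-chaperone that restrains the glucocorticoid receptor, SCNN1A, a subunit of the epithelial sodium channel, MT2A, a metallothionein, and DUSP1, a phosphatase of MAP kinases.

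The cluster at PER1 (chr17:8057651-8057860, intron, 1.81 kb downstream of a TSS) had the highest score of the whole MCFDCIS-named parental list. Its score in the authors' deposited table was 86.6 for MCF10A-named parental, 191.5 for MCFDCIS-named parental and 8.10 in the MCFDCIS-named D4 list. The last was thus near the lowest score of its list, and MCF10A-named D4 did not hold the cluster. PER1 was the 1 glucocorticoid-induced gene of the list with a D4 cluster. The authors' deposited table gave the 2 FKBP5 clusters scores of 25.3 and 7.98 in the MCF10A-named parental list and 79.9 and 44.4 in the MCFDCIS-named one. For SCNN1A, 0.772 kb upstream of the TSS, the scores in the authors' deposited table were 47.0 and 40.1, and for MT2A, 1.14 kb upstream, 43.3 and 36.0. DUSP1 had a cluster 4.45 kb upstream in the MCF10A-named parental list alone, with 8.20 in the authors' deposited table.

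NR3C1, which encodes the glucocorticoid receptor, itself had a cluster over a TSS in the MCFDCIS-named parental list, with a score of 12.7 in the authors' deposited table. RXRA, the partner of many nuclear receptors, had one 0.860 kb downstream of a TSS in both parental lists. They were the 2 of 30 nuclear receptor genes with a TSS-proximal cluster. None of the 25 coactivator and corepressor genes listed had one, but TRIM28, a corepressor outside that list, had one 0.267 kb from a TSS in the MCFDCIS-named parental list. The gene lists here are partial, and a gene outside them can belong to the same group.

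A GRE match was present at 14 of the 214 clusters (6.54%, 3.62 to 10.7). The 11 sequences printed for them cover 10 genes; ACSF2, IL1R1 and SMARCD2, a subunit of SWI/SNF remodelling complexes, had the other 3. All 14 were in a parental list, as were 194 of all 214 TSS-proximal clusters (90.7%). Of these, 8 were in both parental lists and no D4 list, those at FKBP5 (both), SLC41A3, CCND3, SCNN1A, KRT6A, MT2A and SMARCD2. PER1 and TPRG1 were in both parental lists and the MCFDCIS-named D4 list. IL1R1 and KLF13 were in the MCF10A-named parental list alone, and MAP2K1 and ACSF2 in the MCFDCIS-named parental list alone.

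The GRE share was 8 of 47 (17%, 7.65 to 30.8) among proximal clusters in both parental lists and no D4 list. It was 4 of 97 (4.12%, 1.13 to 10.2) among those in a single parental list and no D4 list, and 2 of 70 (2.86%, 0.348 to 9.94) among those in any D4 list. For MCF10A-named D4 it was 0 of 32, with an upper limit of 10.9%. These intervals overlap, and the numbers are small. By distance from a TSS it was 7 of 117 (5.98%, 2.44 to 11.9) within 1 kb, 7 of 97 (7.22%, 2.95 to 14.3) at 1 to 5 kb and 49 of 683 (7.17%, 5.35 to 9.37) at distal clusters. The proximal share minus the distal share was -0.63 points (-4.03 to 3.84). Windows of 500 bp at the canonical TSS of 19471 protein-coding genes held a GRE in 0.534% of cases, and windows 2.5 kb upstream in 0.586%.

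The GRE matches lay at the middle of the clusters. In clusters of at most 500 bp, 12 of 14 matches (85.7%, 57.2 to 98.2) were within 50 bp of the cluster centre, a distance that takes up 20% of the window. The exceptions were KRT6A at 67.5 bp and KLF13 at 59.5 bp. Of the 62 AP-1 matches 23 (37.1%, 25.2 to 50.3) were within 50 bp. The GC box had 15 of 110 (13.6%, 7.84 to 21.5) and the ETS motif 1 of 21 (4.76%, 0.120 to 23.8) that close to the centre. Matches in 1 cluster are not independent of each other.

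**Figure D4:**
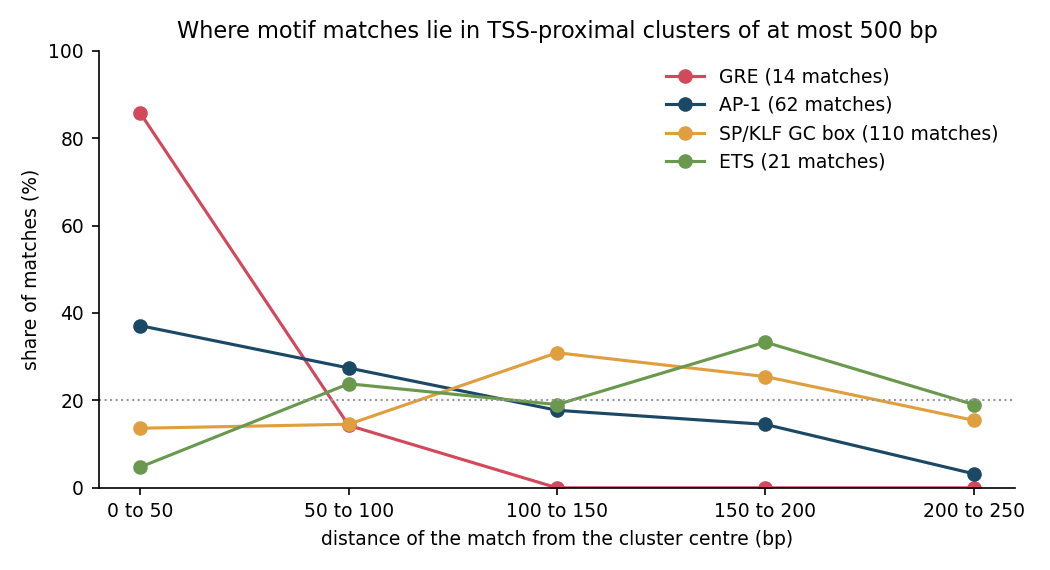
Share of motif matches (vertical axis, %) by their distance from the cluster centre in bp (horizontal axis, 5 bins of equal width), for TSS-proximal clusters of at most 500 bp, with 1 line per motif and the number of matches in the legend. The dotted line at 20% is the share of the window in each bin; 12 of 14 GRE matches and 23 of 62 AP-1 matches fall in the first bin, against 15 of 110 GC boxes.

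Clusters within 1 kb of a TSS differed in sequence from those at 1 to 5 kb, whose intervals overlapped those of distal clusters for each motif named here. The GC box GGGCGG, bound by SP/KLF factors, was in 54 of 117 clusters within 1 kb (46.2%, 36.9 to 55.6), in 18 of 97 at 1 to 5 kb (18.6%, 11.4 to 27.7) and in 83 of 683 distal clusters (12.2%, 9.80 to 14.8). The difference between the first 2 was 27.6 points (15.1 to 38.7). The ETS motif CCGGAAG was in 14.5% (8.70 to 22.2), 3.09% (0.642 to 8.77) and 2.05% (1.13 to 3.42), and the E-box CACGTG in 13.7% (8.02 to 21.3), 3.09% (0.642 to 8.77) and 6.88% (5.10 to 9.05) of the 3 classes.

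The RUNX motif TGTGGT was less frequent within 1 kb: it was in 23.1% of clusters within 1 kb (15.8 to 31.8), 44.3% at 1 to 5 kb (34.2 to 54.8) and 36.5% of distal ones (32.8 to 40.2). The TATA sequence TATAAA was in 14.5% (8.70 to 22.2), 28.9% (20.1 to 39.0) and 29.1% (25.8 to 32.7). AP-1, TGANTCA, was in 23.9% (16.5 to 32.7), 36.1% (26.6 to 46.5) and 34.8% (31.3 to 38.6), and the difference was -12.2 points between the first 2 (-24.2 to 0.113) and -10.9 points between clusters within 1 kb and distal ones (-18.7 to -1.75). The TEAD motif GGAATG was in 30.8%, 33.0% and 36.2%, with overlapping intervals. No motif contains the letters of another, and both strands of the central 500 bp were searched throughout.

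Compared with windows at canonical TSSs, the clusters within 1 kb held GC boxes less often and AP-1 more often. The 2 sets were not matched for position. Of the 89 clusters up to 1 kb from a TSS but not over it, 24 were over 5 kb from the canonical TSS of their gene. Of the 28 clusters over a TSS, 22 were wider than 500 bp, so their central window need not hold the TSS. Windows of 500 bp centred on the canonical TSS of 19471 genes held the GC box in 70.1%, ETS in 16.8% and the E-box in 10.9% of cases. They held RUNX in 16.3%, TATA in 11.6%, TEAD in 17.4% and AP-1 in 7.41%. Windows 2.5 kb upstream held AP-1 in 13.9% and the GC box in 12.2%. The cluster share of AP-1 within 1 kb, 23.9%, thus had an interval above both. The median GC content was 57.6% within 1 kb, 48.2% at 1 to 5 kb and 44.8% at distal clusters, against 64.8% at all TSS windows, so base composition differed between the same classes. Its part in the motif shares was not tested.

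**Figure D5:**
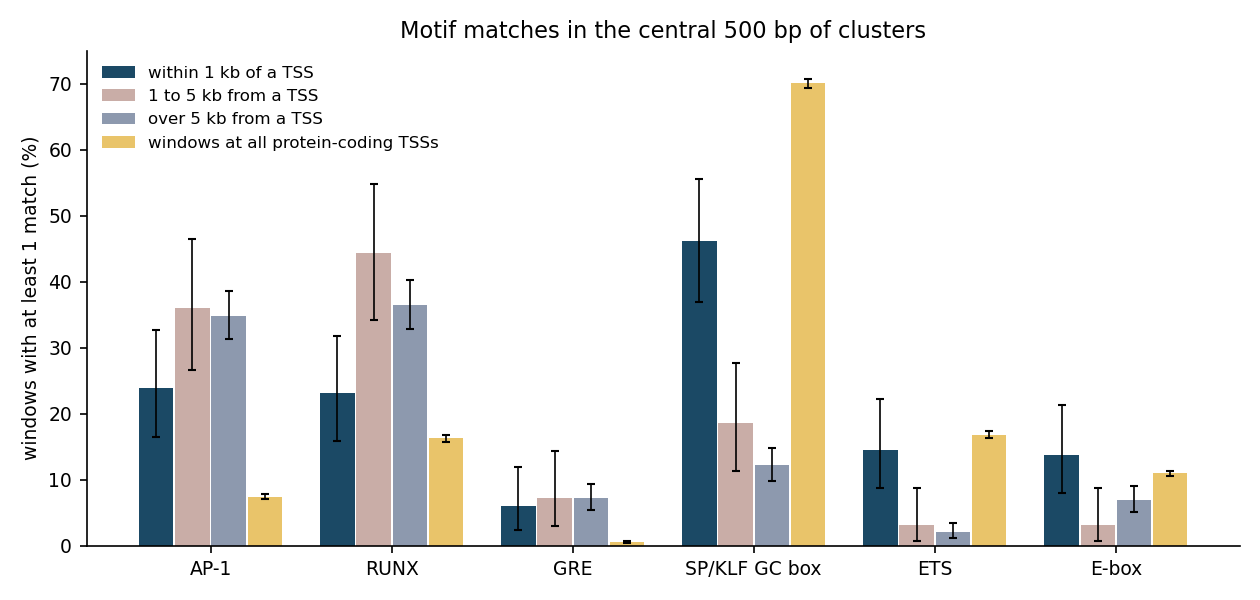
Share of 500 bp windows with at least 1 match (vertical axis, %) for 6 motifs. Clusters are within 1 kb of a TSS, 1 to 5 kb from one or over 5 kb from one. Windows at all protein-coding TSSs are centred on the canonical TSS of each gene. Bars start at 0 and error bars are exact 95% intervals; the GC box falls from 46.2% to 18.6% and 12.2% over the 3 cluster classes, and all 3 lie under the 70.1% of all TSS windows.

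The remaining motifs were infrequent at the 214 clusters. NFY, CCAATNAG, was in 7.01%, STAT, TTCCNGGAA, in 2.80%, NRF1, GCGCNTGCGC, in 1.87%, YY1, AANATGGCG, in 1.40%, the full CRE, TGACGTCA, in 1.40% and NF-kB, GGGANTTTCC, in 0 of 214. In the windows at canonical TSSs they were in 9.21%, 1.71%, 9.14%, 6.28%, 2.86% and 0.704%. In the central 200 bp the proximal minus distal difference was 8.46 points for the GC box and 1.93 points for ETS, against 21.5 and 7.30 points in 500 bp. In the clusters as listed, without flanks, it was 8.85 points (3.66 to 14.9) and 1.40 points (-0.928 to 4.97) for the same motifs. Of the 214 clusters 78 were 10 bp wide, and the part of cluster width in these differences was not tested.

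A CpG ratio of at least 0.6, a usual mark of CpG islands, was found for 44 of the 117 clusters within 1 kb (37.6%), 6 of 97 at 1 to 5 kb (6.19%) and 14 of 683 distal ones (2.05%). Of the windows at canonical TSSs 69.1% reached it. The MCFDCIS-named D4 list had 16 of its 34 clusters within 1 kb (47.1%) at that ratio and the MCF10A-named D4 list 5 of 13 (38.5%). The parental lists had 37 of 82 (45.1%) and 14 of 53 (26.4%).

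Scores rank the TSS-proximal clusters within a list. After PER1, the MCFDCIS-named parental list had CCL20, a chemokine, TPRG1 and S100A2, a calcium-binding protein of basal epithelia, with 139.9, 106.0 and 86.6 in the authors' deposited table, and a wide region near POU5F1B on chromosome 8 with 132.5 in the authors' deposited table. CCL20 was 4.44 kb downstream of the TSS, outside the gene, with an AP-1 match, and S100A2 lay over a TSS. In the MCF10A-named parental list PER1 was followed by CCND3, which encodes cyclin D3, VSIR, SCNN1A and CYP1B1, with 50.8, 48.6, 47.0 and 46.3 in the authors' deposited table.

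The proximal clusters were not the top of their lists as a group. In the authors' deposited table their scores had a median percentile within the list of 49.1 for MCF10A-named parental, 57.1 for MCF10A-named D4, 39.6 for MCFDCIS-named parental and 40.4 for MCFDCIS-named D4. Those in the MCFDCIS-named parental list that were also in the MCF10A-named parental list stood at percentile 58.7 of the authors' deposited table, and those that were not at 32.6. Those also in the MCFDCIS-named D4 list stood at 43.2 and those not in it at 39.4 in the authors' deposited table.

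CYP1B1, a cytochrome P450 induced through the aryl hydrocarbon receptor, had a cluster 0.766 kb upstream of a TSS in both parental lists and the MCF10A-named D4 list. Its score in the authors' deposited table was 46.3, 86.1 and 19.7 in these 3 lists, the last being rank 4 of the D4 list. Its 500 bp window had a GC content of 74.0% and 5 GC boxes. It was the 1 gene of 19 in the aryl hydrocarbon and oxidative stress list with a TSS-proximal cluster.

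The other leading clusters of the MCF10A-named D4 list lay in introns, 1.29 to 4.43 kb downstream of a start. SMG9, a factor of nonsense-mediated mRNA decay, had rank 3, and the authors' deposited table scored it 22.8 there and 10.6 in the parental list. IGSF23 and NIPAL4 had 19.3 and 13.1 in the authors' deposited table and were in no other list. PNLIPRP3, a pancreatic lipase related gene, had 17.4 there in the authors' deposited table and was also in the MCFDCIS-named parental list. SMG9, IGSF23 and NIPAL4 each held an AP-1 match, as the printed sequences show, and PNLIPRP3 held none in 500 bp. Over all 32 proximal clusters of that list 10 held AP-1 (31.2%, 16.1 to 50), against 8 of 42 (19%, 8.60 to 34.1) in the MCFDCIS-named D4 list.

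The 5 highest TSS-proximal scores of the MCFDCIS-named D4 list were at other genes. The highest of that list, 25.5 in the authors' deposited table, was a region over a TSS of HTD2, an enzyme of mitochondrial fatty acid synthesis, and 1.16 kb from a TSS of RPP14, a subunit of ribonuclease P. It had 33.5 in the authors' deposited table for the parental list. PSMA3, an alpha subunit of the proteasome, had a cluster in an intron 0.179 kb downstream of a TSS, with 23.5 in the D4 list and 26.9 in the parental list of the authors' deposited table. EML2 and C19orf73 followed with 13.8 and 11 in the authors' deposited table, along with a region near LRATD2 on chromosome 8 with 13.1 in the authors' deposited table.

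The MCFDCIS-named parental and D4 lists shared 31 clusters that were absent from the MCF10A-named ones, and 17 of these were TSS-proximal. Of the 17, 16 lay within 1 kb of a TSS or over it. They include HTD2, PSMA3, LARS1, a leucyl-tRNA synthetase, HNRNPL, a splicing regulator, MYNN, a zinc-finger factor, S100A2, KCNN4, a potassium channel, and PSAP, the saposin precursor. Of 27 clusters in the MCFDCIS-named D4 list alone, 14 were TSS-proximal. Among the 14 were RPS14, a ribosomal protein, DDX41, an RNA helicase, and CD55, a regulator of complement. Of 35 in the MCF10A-named D4 list alone, 6 were TSS-proximal. Among the 6 were ERCC1, a nucleotide excision repair protein, MATR3, a nuclear matrix protein, and ZBTB20. Of these examples, the names outside the leading scores and nearest positions were chosen after their values were seen.

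Among housekeeping lists, 2 of 30 proteasome genes (PSMA3 and PSMD8), 1 of the 39 cytosolic ribosomal protein genes listed (RPS14) and 3 of the 31 splicing and RNA processing genes listed (SRSF1, RPP14 and HNRNPH1) had a TSS-proximal cluster, and none of 34 genes of oxidative phosphorylation, 20 replication-dependent histone genes, 26 cell cycle genes or 23 genes of the unfolded protein and heat shock response did. The lists leave out RPL13A and RPL28, ribosomal protein genes with a cluster 0.360 and 0.072 kb from a TSS in the MCFDCIS-named parental list, and HNRNPL. Also left out are CCND3, a cell cycle gene with a cluster 2.76 kb from a TSS in both parental lists, and PPP1R15A. PPP1R15A, a stress response gene, had one 0.073 kb from a TSS in the MCFDCIS-named parental list. A count of 0 thus holds for the genes listed only. The shares of the lists stand beside the 1.14% of all genes, and with 0 of 20 a share of up to 16.8% is allowed by the interval.

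VGLL4, a cofactor that limits TEAD activity, had a cluster in both parental lists and the MCFDCIS-named D4 list, 0.638 kb downstream of an alternative TSS, at 13.7, 26.5 and 10.5 in the authors' deposited table. AXL, a receptor tyrosine kinase and YAP target, had one 0.550 kb upstream of a TSS in both parental lists, at 24.3 and 45.0 in the authors' deposited table. They were the 2 of 28 YAP-TEAD pathway genes with a TSS-proximal cluster, and both hold AP-1 in the sequences printed.

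In the ERBB, IGF and MAPK list 4 of 33 genes had one, none of them in a D4 list. AKT2, a kinase of the PI3K pathway, had a cluster 0.049 kb upstream of a TSS in both parental lists, HRAS one 0.376 kb upstream in both, SPRED2, an inhibitor of Ras signalling, one 3.98 kb upstream in both, and MAP2K1, the kinase MEK1, one 3.95 kb downstream in the MCFDCIS-named parental list. Of 25 basal genes, KRT17 (0.084 kb downstream) and KRT6A (1.41 kb upstream), keratins of basal and stressed epithelium, had clusters in both parental lists and in no D4 list. No luminal marker of 20 and no epithelial-mesenchymal transition gene of 24 had a TSS-proximal cluster.

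The AP-1 and immediate early list had 2 of 25 genes. FOSB, a partner of JUN proteins, had 2 clusters in the MCFDCIS-named parental list, over a TSS and 0.643 kb upstream of one, and MYC had a wide region over its TSS in the same list. The S100 and epidermal differentiation list had 3 of 26 (S100A2, S100A10 and S100A16), the circadian clock list 2 of 19 (PER1 and DBP) and the NF-kB and inflammatory list 1 of 24 (CCL20). Of the blood cell genes listed, markers of cells other than mammary epithelium, 0 of 25 had one, but CSF3R, FCMR and MZB1, genes of blood cells outside that list, had a cluster 3.82, 1.01 and 3.59 kb from a TSS. Of the neuronal genes listed 0 of 22 had one, and of the extracellular matrix and protease genes listed 0 of 29. Outside the latter list, KLK6, a secreted protease, had one over a TSS in both parental lists. P4HA1 and P4HA2, enzymes that modify collagen, had one over a TSS and one 0.037 kb from a TSS. Apart from KLK6, the genes named here from outside the lists were chosen after their values were seen.

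Clusters over a TSS in both parental lists and in no D4 list were 4. They include KLK6, a secreted serine protease, at 19.4 and 54.5 in the authors' deposited table, and SMARCD2, at 10.0 and 18.2 in the authors' deposited table. KLK6 held 3 GC boxes, 1 AP-1 and 1 ETS match in its 500 bp window, and SMARCD2 a GRE.

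In 3 stretches of the genome clusters lay densely, and 47 of the 214 TSS-proximal clusters were there: 27 on chromosome 17 around SREBF1, 15 on chromosome 10 around PSAP and 5 on chromosome 8 around MYC. These proximal clusters were wider, with a median of 1010 bp against 60 bp for the other 167, and 15 of the 47 lay over a TSS against 13 of the 167. In the central 500 bp none of the 47 held a GRE, against 14 of 167, and 9 held AP-1 (19.1%), against 54 of 167 (32.3%). The rest of a wider cluster was not searched. Of the 47, 30 were over 500 bp wide, against 20 of the 167, so the search covered the 2 sets unequally. The share of members on chromosome 19 was 20.1%, where 7.74% of protein-coding genes lie, and on chromosome 17 it was 18.2% against 6.25%. On chromosome 5, which has none of the dense stretches, it was 15.9% against 4.71%, and on chromosome 10 it was 7.48% against 3.93%. Chromosome X had none. For 4 clusters the central 100 bp matched a second place in the genome at 95% identity or more, so reads there may have been placed at either site.

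The 5 kb limit fell between near neighbours. Just inside were SH3GL1 at 4.88 kb, in both parental lists, and EML2 at 4.89 kb, in the MCFDCIS-named D4 list, and just outside were TGFBI at 5.02 kb and RAI1 at 5.06 kb, both in the MCFDCIS-named parental list.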

How the data were processed

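The deposited files are 4 lists of regions, 1 per group, with chromosome, start, end and a score and no value per replicate. Per the labels' protocols cells were fixed with formaldehyde and AIB1 was immunoprecipitated with a low-cell-number kit, the series' design text says that ChIP was normalized to input, and hg19 (GRCh37) is the build per the submitters' processing notes. Not given in the sources used here: aligner, caller, threshold, and what the deposited score means. Depth is unknown. The authors' score was used only to rank or filter within a list. Whether the 3 ChIP samples of a group were separate cultures is not stated in the labels.

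Regions of identical position over the 4 lists (1378 in all) were merged, and distance ran from the cluster's nearest edge to the TSS of 89217 protein-coding transcripts in GENCODE release 44 lifted to GRCh37. Motifs, GC content and the CpG ratio were read in the central 500 bp from the GRCh37 sequence. Genes were counted with any TSS within 5 kb, against 24 gene lists. Second matches were sought with minimap2 2.31. No test over regions was made, and shares have exact or Newcombe intervals. Distances, motif matches and intervals were tested on simulated data. Members and gene lists were chosen with earlier results of these data known. Named clusters were those in 3 or more lists, the 5 with the highest score per list, up to 4 genes per gene list, the 3 nearest to a TSS in both D4 lists, in D4 lists only and in both parental lists only, the neighbours of the limit, and up to 3 per motif for the 3 motifs that differed most; others are said to be chosen after seeing their values, or are listed as holders of a counted motif. Software was samtools 1.23.1 and, in Python 3.11.15, the packages matplotlib 3.10.9, SciPy 1.17.1, pandas 2.3.3, pysam 0.24.0 and numpy 2.4.6. Some results are not reported here.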

Additional observations from a re-analysis of the deposited data

How the results depend on the processing

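Of 232 values under other settings 195 stayed within the 95% interval, or for gene counts within 1.5 times, of the reported value, 37 moved, and none changed the sign of a difference whose interval excluded 0. With a limit of 1 kb the proximal shares were 10.8% (MCF10A-named parental), 9.42% (MCF10A-named D4) and 12.6% (MCFDCIS-named parental). The MCFDCIS-named D4-listed share, proximal minus distal, was then 20.7 points, and the motif differences were -14.4 (RUNX), 12.3 (ETS), 33.2 (GC box), 7.26 (E-box) and -14.6 points (TATA), with 58, 14 and 88 genes in the same 3 lists. With 2 kb the shares were 13.7%, 11.6% and 15.5%, the D4-listed difference 17.5 points, RUNX -13.2 points and the MCF10A-named D4 genes 17. With 10 kb the shares were 30.0%, 33.3% and 33.8%. Basic transcripts gave the MCFDCIS-named parental share as 19%. Scores above the list's median gave it as 16.9%, with 50, 17, 62 and 21 genes in the MCF10A-named parental and D4 and MCFDCIS-named parental and D4 lists. The central 200 bp gave ETS 1.93, the GC box 8.46 points and a distal GC content of 46%, and the whole cluster gave ETS 1.40 and the GC box 8.85 points. Settings chosen after seeing the data were the canonical TSS only, with shares of 12.2%, 13%, 14.7% and 32.3% in the 4 lists, parental scores above the median, with 36.7 points between clusters within 1 kb and at 1 to 5 kb, and clusters of at most 500 bp, where no value left its interval. Except where a setting itself changes the set, such as a shorter limit, the cause was not tested. Dropping the dense regions or second matches, distance from the midpoint and other definitions of a shared cluster moved no value out of its interval. Some intervals did gain or lose 0. The MCF10A-named D4-listed difference, proximal minus distal, went from 6.47 points (-0.912 to 15.7) to 8.22 (0.558 to 18.3) without the dense regions and 9.15 (1.04 to 19.6) without clusters over 500 bp. Its value for clusters within 1 kb minus distal went from 6.53 (-2.52 to 19.4) to 11.8 (1.48 to 26.8) without the dense regions, a setting chosen after seeing the data. The MCFDCIS-named one went from 9.29 (3.47 to 16.4) to 4.61 (-2.20 to 15.8) with scores above the median. AP-1, -5.41 points (-12.2 to 1.90), was -11.1 (-18.7 to -1.98) at 1 kb and -10.8 (-18.0 to -2.46) at 2 kb, and TATA, -8.11 (-14.2 to -1.31), was -6.79 (-15.1 to 3.14) with scores above the median, -7.26 (-14.0 to 0.441) without dense regions, -1.93 in the central 200 bp and -2.21 in the whole cluster. No paired analysis was possible because the lists carry no replicate values, and no replicate could be left out for the same reason. Depth is unknown, so a cluster missing from a D4 list may lie just under its limit.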

Other observations

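Genes named ZNF or ZBTB, most of which encode zinc-finger DNA-binding proteins, were noticed among the promoters after the values were seen. Of 539 such genes on chromosomes with clusters 12 had a TSS-proximal cluster in any list (2.23%, exact 95% interval 1.16 to 3.86), against 1.14% of all protein-coding genes. By list they were 4 for MCF10A-named parental, 2 for MCF10A-named D4, 7 for MCFDCIS-named parental and 6 for MCFDCIS-named D4. The 6 of the last list were ZNF146, ZNF460, ZNF565, ZNF574, ZNF580 and ZNF581. ZNF146 and ZNF565 share 1 cluster and ZNF580 and ZNF581 another, so the 6 genes stand for 4 clusters. These 6 genes and ZNF575 lie on chromosome 19, which held 20.1% of the TSS-proximal clusters and 7.74% of protein-coding genes. The 1.14% covers all chromosomes with clusters, and no comparison was made within chromosome 19.

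At 11 of the 214 clusters 2 genes on opposite strands each had a TSS within 1 kb of the cluster and started head to head. Their starts were at most 1 kb apart, and pairs that overlapped slightly were included. The clusters near AKT1S1, a regulator of mTORC1, and near C19orf73 had more than 1 protein-coding gene within 5 kb and were in both parental lists and the MCFDCIS-named D4 list. Each held GC boxes (2 and 5) and 1 ETS match in its 500 bp window.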
